A study of Mus musculus with 10 samples.

Results

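The genes of retinoid metabolism and retinoic acid reception described here are 9 of the 51707 genes measured in tumour epithelial cells: Rbp4, Crabp2, Rdh10, Dhrs9, Aldh1a1, Aldh1a3, Rara, Rarb and Rarg. They were chosen by name, with earlier results of these libraries known, and the estimated counts and TPM of their transcripts were summed in each library. The 10 libraries came from cells of pancreatic ductal adenocarcinomas (PDAC) grown in NSG mice, an immunodeficient host, from T6-LOH organoids of the KPC mouse model of pancreatic cancer, which were placed in the pancreas along with pancreatic stellate cells (PSCs). In 5 libraries the co-transplanted cells were the Egfr knockout clone B4 of the PSC4 line (Egfr KO PSC), and in the other 5 they were the line labelled PSC4 ROSA (egfr), read as the control with intact Egfr (Egfr WT PSC). The epithelial cells of both groups carry no engineered change in Egfr that the labels name. The strain label of all libraries is C57BL/6J, and the labels do not say whether it means the host or the donor cells. Only 1 knockout clone was used, so loss of Egfr and properties of that clone cannot be told apart. The labels do not say that each library is a separate mouse, so p-values reflect only how much the libraries vary, which may be technical.

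Vitamin A circulates as retinol bound to a plasma carrier and enters cells that can oxidise it. Retinol dehydrogenases make retinal, retinal dehydrogenases turn retinal into retinoic acid, and a cellular binding protein hands retinoic acid to nuclear receptors that bind DNA as partners of RXR. In the pancreas, quiescent stellate cells are known for storing retinoids as esters, and retinoic acid is needed for the organ's development. Retinoic acid induces the gene of one of its own receptors, Rarb, and that of the enzyme that degrades it, Cyp26a1.

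The DNA sites through which retinoic acid is known to act at Rarb and Cyp26a1 are shown because both transcripts serve as readouts of the pathway below. The search was for a direct repeat separated by 5 bases, on both strands. Each copy could be the receptor motif AGGTCA, the variant AGTTCA found in both printed sites, the variant GGTTCA that opens the Rarb site, or the further variant GGGTCA. It covered the RefSeq promoters of GRCm38.p6, each from 250 bases before to 50 bases after a start site. The repeat occurred in 32 of 32851 promoters (0.0974%), in 1 of 12 promoters found for 6 of the 9 genes, and in 1 of 66 promoters of the other pathway genes. The hits among the 9 genes and the other pathway genes are the printed sites themselves. The search words include those of these sites, so the counts are no measure of enrichment. Each site is printed on its gene's strand, 5′ to 3′, with the repeat and its spacer in capitals.
Rarb, chr14:16575506-16575535, minus strand: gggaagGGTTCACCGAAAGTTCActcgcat
Cyp26a1, chr19:37697770-37697799, plus strand: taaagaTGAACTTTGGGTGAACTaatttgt
The Rarb site lay at bases -53 to -37 from the RefSeq start and was read on the gene's strand. The Cyp26a1 site lay at bases -32 to -16 and read on the opposite strand, as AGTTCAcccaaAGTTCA with the repeat words in capitals. A match is a run of letters and not a measured binding site. Of the 31 genes with such a promoter, 9 passed the expression filter, 5 with a log2 fold change above 0 and 4 below 0. Of them edgeR called 0, as of all 17495 genes tested.

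The deposited estimated counts summed to between 39534055 and 53816086 per library in named genes. Summed epithelial markers were at 14457 to 25621 TMM-normalised CPM (counts scaled to library size) with Egfr KO PSCs and 16638 to 17868 CPM with Egfr WT PSCs. Of 12 fibroblast and stellate cell markers, 9 had a log2 fold change below 0 and 3 above 0. Of 10 macrophage markers 7 were below and 3 above, and all 6 endothelial markers were below. Among these markers edgeR called 0, as among all 17495 genes tested. The mean log2 CPM over the fibroblast list was 2.84 ± 0.315 with Egfr KO PSCs and 3.35 ± 0.367 with Egfr WT PSCs, and over the macrophage list 0.642 ± 0.382 with Egfr KO PSCs and 1.42 ± 0.604 with Egfr WT PSCs (SD, n = 5 each). Col1a1, a collagen gene, averaged 96.6 ± 27.2 CPM with Egfr KO PSCs and 199 ± 55.2 CPM with Egfr WT PSCs. Lyz2, a lysozyme gene of macrophages, averaged 3.42 ± 2.61 CPM with Egfr KO PSCs and 9.99 ± 9.91 CPM with Egfr WT PSCs. The summed levels overlapped between Egfr KO PSC and Egfr WT PSC libraries, at 352 to 1268 CPM against 380.3 to 970.3 CPM for the fibroblast list, 54.0 to 86.9 CPM against 41.3 to 98.7 CPM for the macrophage list and 7.46 to 44.1 CPM against 19.4 to 31.0 CPM for the endothelial list. Col3a1 and Mrc1, the most abundant markers of the fibroblast and macrophage lists, were higher on average with Egfr KO PSCs, at 477 CPM against 412 CPM for Col3a1 and 39.4 CPM against 27.2 CPM for Mrc1. Egfr in the sorted cells averaged 63.4 ± 9.12 CPM with Egfr KO PSCs and 58.5 ± 16.2 CPM with Egfr WT PSCs (SD, n = 5 each), which does not check the labels, since the knockout was in the PSCs. Fewer cells of a type and less RNA per cell cannot be told apart in such bulk libraries.

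Per length, the retinal dehydrogenase gene Aldh1a3 was the most abundant of the 9 genes, at 342 ± 114 TPM over all libraries (SD, n = 10). Its lowest library, at 220.5 TPM, lay above the highest of any of the other 8 genes. Rdh10 averaged 99.2 ± 22.9 TPM and Rbp4 73.8 ± 42.2 TPM, and their ranges overlapped. The Rdh10 level includes a transcript annotated as a retained intron, at 43.1% of its TPM on average, so the order of these neighbours depends on counting it. Rarg averaged 54.4 ± 7.08 TPM and Rara 51.4 ± 4.74 TPM, with Rarg above Rara in 5 of 10 libraries. These neighbours did not differ beyond their spread. Crabp2 averaged 15.3 ± 13.7 TPM, Rarb 6.17 ± 2.47 TPM and Aldh1a1 2.39 ± 1.07 TPM, where Crabp2 overlapped Rarb and Rarb overlapped Aldh1a1. Dhrs9 was lowest at 0.303 ± 0.233 TPM, below Aldh1a1 in every library. Among the 17495 genes tested, the mean TPM of Aldh1a3 stood at percentile 97.2 and that of Dhrs9 at percentile 8.14.

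**Figure D1:**
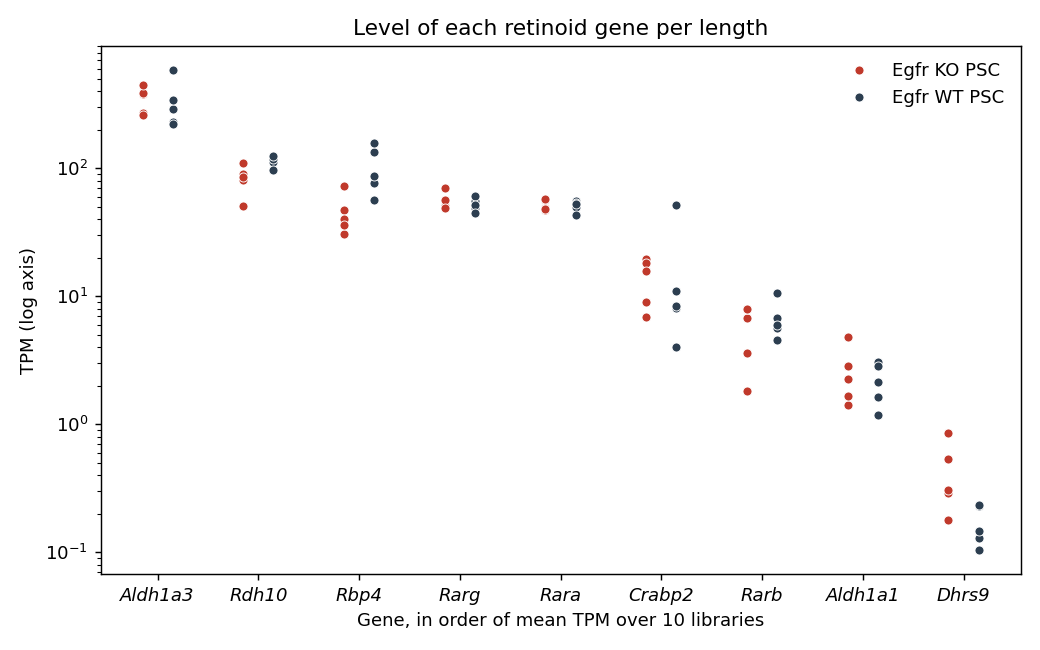
TPM (log axis) of each retinoid gene in the 10 libraries, with genes in order of their mean; each point is 1 library, red for Egfr KO PSC and dark for Egfr WT PSC. Aldh1a3 lies above all others and Dhrs9 below all others, while Rarg and Rara share a narrow band.

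All 9 genes passed the expression filter, and 0 were called by edgeR's quasi-likelihood test at an adjusted p below 0.05, against 0 (0.0%) of the 17495 genes tested. DESeq2 called 1 of the 9, Rbp4, against 132 (0.655%) of the 20162 genes to which it gave an adjusted p, and limma voom called 0 of the 9, against 0.0171% of all. Unadjusted edgeR p-values were below 0.05 for 3 of the 9 (Rbp4, Dhrs9 and Rdh10), against 8.15% of all genes tested. In CPM the groups overlapped for all 9 genes, and 1.52% of all genes had groups that did not overlap. Counts given below of Egfr KO PSC libraries beyond every Egfr WT PSC library were not taken over all genes, so they are a description only. The log2 fold change (Egfr KO PSC divided by Egfr WT PSC) was above 0 for 5 and below 0 for 4, with a median of 0.047 against 0.00041 over all genes. Since the 9 genes were listed with this contrast known, their fold changes describe these libraries and support nothing further.

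**Figure D2:**
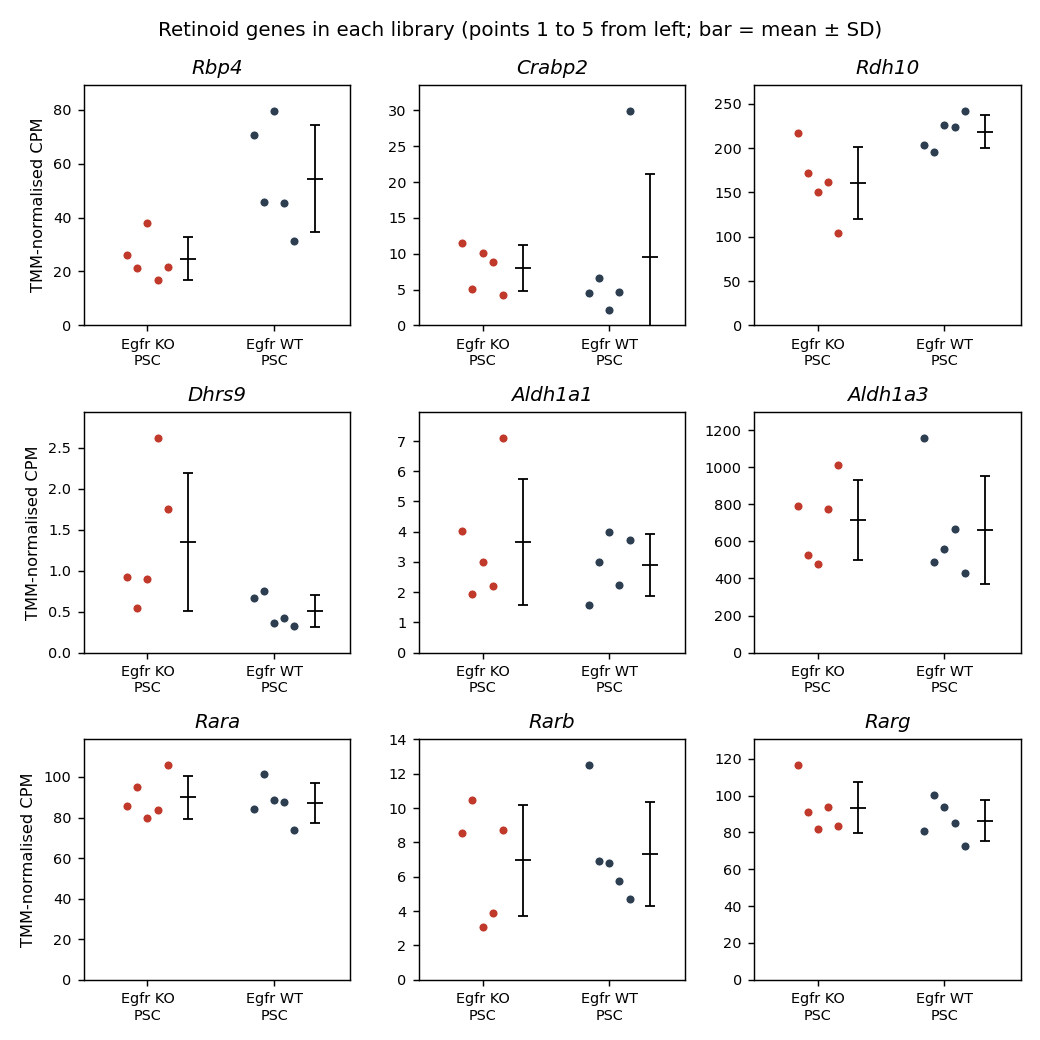
TMM-normalised CPM of each of the 9 genes, with 5 libraries of Egfr KO PSC (red) at the left and 5 of Egfr WT PSC (dark) at the right of each panel, replicates 1 to 5 from the left, and the mean ± SD as a bar; the lower end of the Crabp2 bar for Egfr WT PSC runs below the axis. Rbp4 and Rdh10 are lower in 4 of 5 Egfr KO PSC libraries than in any Egfr WT PSC library, and a single Egfr WT PSC library holds most of the Crabp2 signal of its group.

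Rbp4, which encodes the plasma carrier of retinol, was lower with Egfr KO PSCs. It was at 26.1, 21.4, 37.9, 16.7 and 21.7 CPM in Egfr KO PSC replicates 1 to 5, and at 70.4, 45.6, 79.6, 45.5 and 31.2 CPM in Egfr WT PSC replicates 1 to 5. Of the Egfr KO PSC libraries 4 lay below every Egfr WT PSC library, and only Egfr KO PSC replicate 3 exceeded Egfr WT PSC replicate 5. The means were 24.8 ± 8.05 and 54.5 ± 19.9 CPM (SD, n = 5 each), a log2 fold change of -1.14 (SE 0.27, 95% interval from -1.73 to -0.55, adjusted p = 0.366 in edgeR). DESeq2 gave -1.14 with an adjusted p of 0.0194. Per length the level was 45.4 ± 16.5 TPM with Egfr KO PSCs and 102 ± 41.5 TPM with Egfr WT PSCs. Liver, adipose tissue and islets are known sources of Rbp4. The 6 hepatocyte markers summed to 4.31 to 21.5 CPM with Egfr KO PSCs and 7.23 to 35.0 CPM with Egfr WT PSCs, and most of this was Apob; Alb was at no more than 0.46 CPM in any library. Islet markers summed to 52.2 to 182 CPM with Egfr KO PSCs and 23.5 to 210.4 CPM with Egfr WT PSCs, and adipocyte markers to 2.05 to 11.8 CPM and 4.93 to 11.0 CPM in the same order. The part of these cell types in the Rbp4 values was not tested. With the fibroblast score as a covariate the log2 fold change of Rbp4 was -1.17, and with the macrophage score -0.90 (adjusted p = 0.397 and 1.00 in edgeR).

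Ttr, the plasma partner protein of Rbp4, averaged 2.88 ± 1.93 CPM with Egfr KO PSCs and 4.55 ± 1.03 CPM with Egfr WT PSCs (log2 fold change -0.66, adjusted p = 0.71 in edgeR). For Ttr, 4 Egfr KO PSC libraries lay below every Egfr WT PSC library, and the unadjusted p was 0.135 in edgeR. The highest Ttr level was in Egfr KO PSC replicate 5 at 5.94 CPM, where Rbp4 was at 21.7 CPM. The cell surface receptor for the carrier, Stra6, was abundant, at 151 ± 60.1 CPM with Egfr KO PSCs and 128 ± 46.2 CPM with Egfr WT PSCs (log2 fold change 0.24, adjusted p = 0.863 in edgeR).

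Crabp2, which carries retinoic acid to the receptors, was the most variable of the 9 genes. Its values were 11.5, 5.06, 10.1, 8.88 and 4.23 CPM in Egfr KO PSC replicates 1 to 5, and 4.48, 6.61, 2.16, 4.62 and 29.9 CPM in Egfr WT PSC replicates 1 to 5. One library, Egfr WT PSC replicate 5, was far above the rest. The mean was 7.96 ± 3.19 CPM with Egfr KO PSCs and 9.56 ± 11.5 CPM with Egfr WT PSCs, and the median 8.88 and 4.62 CPM in the same order. The log2 fold change was -0.26 (SE 0.61, 95% interval from -1.59 to 1.06, adjusted p = 0.933 in edgeR) with all libraries and 0.83 (adjusted p = 0.44 in edgeR) without Egfr WT PSC replicate 5. The fibroblast and stellate cell markers summed to 1268, 644, 516, 352 and 464 CPM in Egfr KO PSC replicates 1 to 5, and to 712, 899.6, 380.3, 635 and 970.3 CPM in Egfr WT PSC replicates 1 to 5. Within the Egfr WT PSC group the library with the highest Crabp2 had the highest sum and the one with the lowest Crabp2 the lowest. In the Egfr KO PSC group replicate 1 had the highest sum and the highest Crabp2. Replicate 4 of that group had the lowest sum with Crabp2 at 8.88 CPM, and replicate 2 had the second-highest sum with Crabp2 at 5.06 CPM. Col3a1 made up 84.4% of the sum in replicate 1 and 79.6% in replicate 2. The fibroblast score is the mean log2 CPM over the list. By this score replicate 2 was lowest of the Egfr KO PSC group at 2.53, followed by replicate 4 at 2.55 and replicate 5 at 2.82. Replicate 5 had the lowest Crabp2 of that group, at 4.23 CPM. The highest score of that group was in replicate 3, at 3.27, and not in replicate 1. A link between Crabp2 and these markers was not tested. With the fibroblast score as a covariate the log2 fold change was 1.50 (adjusted p = 0.456 in edgeR).

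Rdh10, the main retinol dehydrogenase of the mouse embryo, was somewhat lower with Egfr KO PSCs. It was at 217, 172, 150.0, 161 and 104 CPM in Egfr KO PSC replicates 1 to 5, and at 204, 195, 226, 224 and 242 CPM in Egfr WT PSC replicates 1 to 5. Below every Egfr WT PSC library lay 4 Egfr KO PSC libraries, and the exception was Egfr KO PSC replicate 1. The means were 161 ± 40.7 CPM with Egfr KO PSCs and 218 ± 18.6 CPM with Egfr WT PSCs (log2 fold change -0.44, SE 0.16, 95% interval from -0.79 to -0.086, adjusted p = 0.509 in edgeR). Its log2 fold change was -0.38 with the fibroblast score and -0.43 with the macrophage score as a covariate. No setting tried turned its direction, and the value ranged from -0.56 to -0.31 when 1 library was left out.

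Dhrs9, another dehydrogenase that can act on retinol, had few counts, from 14 to 110 estimated counts per library. Its level was 0.916, 0.541, 0.902, 2.62 and 1.75 CPM in Egfr KO PSC replicates 1 to 5, and 0.666, 0.755, 0.357, 0.426 and 0.323 CPM in Egfr WT PSC replicates 1 to 5. Of the Egfr KO PSC libraries 4 were above every Egfr WT PSC library. The means were 1.35 ± 0.839 CPM with Egfr KO PSCs and 0.505 ± 0.193 CPM with Egfr WT PSCs (log2 fold change 1.40, SE 0.44, 95% interval from 0.45 to 2.36, adjusted p = 0.464 in edgeR). It was 1.01 without Egfr KO PSC replicate 4, the library with the highest level, 0.94 with the fibroblast score and 1.16 with the macrophage score as a covariate, and 0.44 on log2(TPM + 0.5).

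The retinal dehydrogenases showed no difference beyond the spread of the libraries. Aldh1a3, which makes retinoic acid from retinal, was at 791, 524, 480.3, 776 and 1009 CPM in Egfr KO PSC replicates 1 to 5. In Egfr WT PSC replicates 1 to 5 it was at 1158, 491, 561, 666 and 431 CPM. The highest and the lowest library both belonged to the Egfr WT PSC group. The means were 716 ± 217 CPM with Egfr KO PSCs and 662 ± 291 CPM with Egfr WT PSCs (log2 fold change 0.11, 95% interval from -0.49 to 0.72, adjusted p = 0.938 in edgeR). The interval does not exclude changes of that width in either direction. Aldh1a3 took 97.7 ± 0.665% of the summed TPM of Aldh1a1, Aldh1a2, Aldh1a3 and Aldh1a7 with Egfr KO PSCs and 97.4 ± 1.50% with Egfr WT PSCs.

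Aldh1a1, a related enzyme often used as a marker of progenitor cells, was scarce. It was at 4.02, 1.95, 3.01, 2.19 and 7.10 CPM in Egfr KO PSC replicates 1 to 5, and at 1.56, 2.98, 4.002, 2.23 and 3.74 CPM in Egfr WT PSC replicates 1 to 5. The groups overlapped widely (3.65 ± 2.09 CPM with Egfr KO PSCs and 2.90 ± 1.02 CPM with Egfr WT PSCs, log2 fold change 0.33, adjusted p = 0.851 in edgeR). Its log2 fold change was -0.053 without Egfr KO PSC replicate 5, the highest library. Aldh1a2, the form that predominates in mesenchyme of the mouse embryo, averaged 5.47 ± 2.10 CPM with Egfr KO PSCs and 5.88 ± 3.73 CPM with Egfr WT PSCs, and its highest library, at 12.2 CPM, was again Egfr WT PSC replicate 5.

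Among the receptors, Rara and Rarg were steady across libraries and Rarb was low and variable. Rara was at 85.5, 95.2, 79.7, 83.8 and 106 CPM in Egfr KO PSC replicates 1 to 5, and at 84.3, 102, 88.5, 87.6 and 73.7 CPM in Egfr WT PSC replicates 1 to 5. The log2 fold change of Rara was 0.047 (95% interval from -0.20 to 0.29, adjusted p = 0.936 in edgeR). Rarg was at 117, 91.3, 81.7, 94.1 and 83.5 CPM in Egfr KO PSC replicates 1 to 5, and at 80.6, 101, 93.6, 85.0 and 72.4 CPM in Egfr WT PSC replicates 1 to 5 (log2 fold change 0.11, 95% interval from -0.16 to 0.38, adjusted p = 0.842 in edgeR). The pooled SD of log2 CPM within groups was 0.16 for Rara and 0.19 for Rarg, at percentiles 12.8 and 20.1 of all genes tested. It was 1.08 for Crabp2, at percentile 96.6.

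Rarb, the receptor gene that retinoic acid induces, was at 8.54, 10.5, 3.10, 3.90 and 8.74 CPM in Egfr KO PSC replicates 1 to 5. In Egfr WT PSC replicates 1 to 5 it was at 12.5, 6.93, 6.81, 5.73 and 4.69 CPM. Both the lowest libraries belonged to the Egfr KO PSC group and the highest to the Egfr WT PSC group, but the means were close (6.95 ± 3.25 CPM with Egfr KO PSCs and 7.33 ± 3.03 CPM with Egfr WT PSCs, log2 fold change -0.077, 95% interval from -0.86 to 0.71, adjusted p = 0.971 in edgeR). Of the summed TPM of the 3 receptor genes, Rarb took 4.82 ± 2.20% with Egfr KO PSCs and 6.16 ± 2.15% with Egfr WT PSCs. Rara took 45.6 ± 4.70% and Rarg 49.6 ± 5.30% with Egfr KO PSCs, against 46.3 ± 1.15% for Rara and 47.6 ± 2.23% for Rarg with Egfr WT PSCs.

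**Figure D3:**
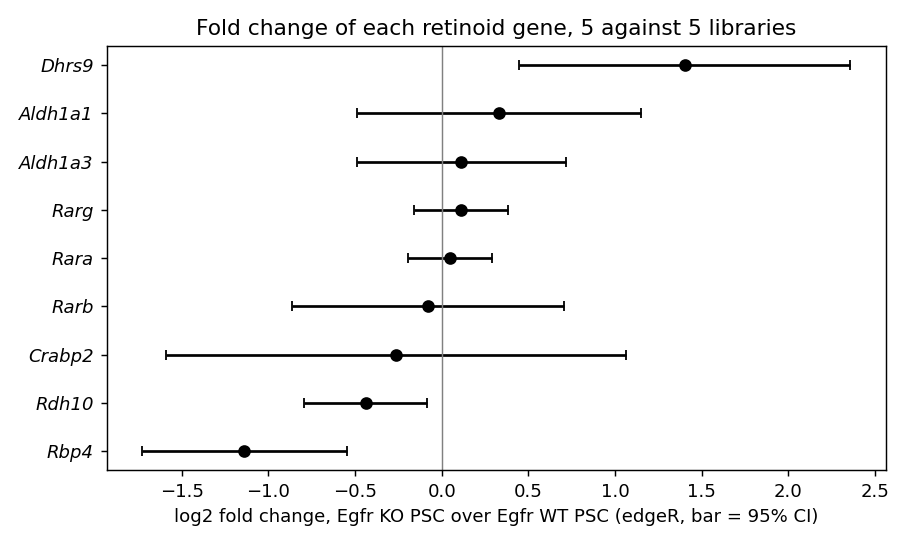
Log2 fold change of each of the 9 genes, the Egfr KO PSC group divided by the Egfr WT PSC group, from edgeR with its 95% interval from (5 against 5 libraries). The intervals of Rbp4 (-1.73 to -0.55), Rdh10 and Dhrs9 leave out 0 before adjustment over all genes, and that of Crabp2 is the widest.

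Transcript shares were not used to choose the genes and were tested for the 6 genes with at least 2 transcripts of 5% or more. The share of the leading transcript differed in 0 of 6 (exact permutation tests, two-sided, Benjamini-Hochberg adjusted over the 6). The smallest p this design allows is 0.00794. Rbp4-202 held 64.3 ± 4.31% of the Rbp4 counts with Egfr KO PSCs and 70.5 ± 7.05% with Egfr WT PSCs (SD, n = 5 each; exact permutation p = 0.159, adjusted p = 0.69). Rarb-201 held 77.0 ± 10.2% of the Rarb counts with Egfr KO PSCs and 65.0 ± 18.0% with Egfr WT PSCs (exact permutation p = 0.23, adjusted p = 0.69). The annotated 5′ end of Rarb-201 lies 67 bases upstream of the RefSeq start, so the site printed above falls inside this transcript as annotated. Transcripts beginning within 500 bases of that start held 78.0% to 96.7% of the Rarb counts in the 10 libraries. Shares by TPM were unlike those by counts, and Rarb-201 held 42.6% of the Rarb TPM on average over all libraries. Rarb-203 and Rarb-204, annotated to begin 243680 and 243529 bases from that start, held 27.2% and 4.72% of the TPM. Rdh10-202, annotated as a retained intron, held 29.7% of the Rdh10 counts and 43.1% of the Rdh10 TPM on average, so part of the Rdh10 sum is not annotated as protein-coding. Rarg had 2 common transcripts, Rarg-201 at 62.3% and Rarg-202 at 36.3% on average. The division between transcripts that share sequence is an estimate of the quantification.

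**Figure D4:**
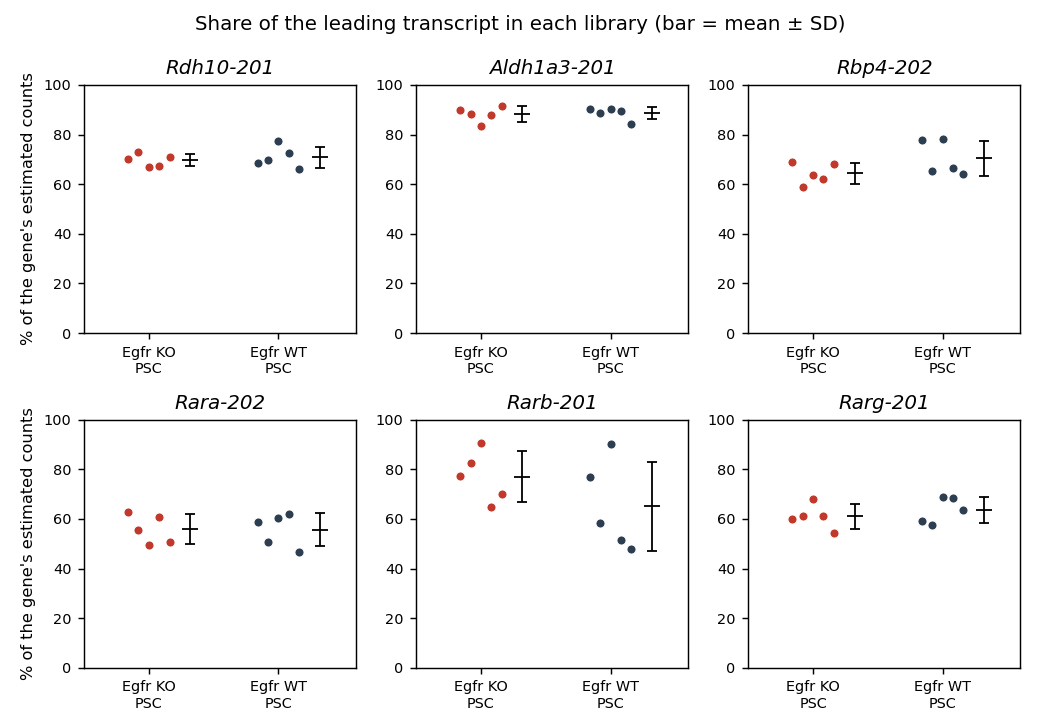
Share of each gene's estimated counts held by its leading transcript, for 5 Egfr KO PSC libraries (red, left) and 5 Egfr WT PSC libraries (dark, right), with the mean ± SD as a bar. The shares overlap between the groups in all 6 panels and spread most for Rarb-201.

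No other gene of the pathway was called by edgeR. DESeq2 called 1, Lrp2, against 132 (0.655%) of the 20162 genes to which it gave an adjusted p. The list held 70 names, of which 68 were matched and 47 passed the filter. Of these 47, 20 had a log2 fold change above 0 and 27 below 0, with a median of -0.051. Among them edgeR called 0, as among all 17495 genes tested. At an unadjusted p below 0.05 there were 6 of 47, 0 higher and 6 lower with Egfr KO PSCs, against 3.55% higher and 4.6% lower over all genes tested. The list was chosen with earlier results of these data known, so this count describes these libraries and supports nothing further. The 6 were Bco2, Tgm2, Ncoa1, Adh7, Rarres2 and Rdh12, the last named after its value was seen. Ncoa1 was the 1 gene of the 47 whose groups did not overlap, a share near the 1.52% of all genes tested.

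Among the carriers, Fabp5, a fatty acid carrier that can also bind retinoic acid, averaged 39.7 ± 31.2 CPM with Egfr KO PSCs and 20.8 ± 9.08 CPM with Egfr WT PSCs (log2 fold change 0.93, adjusted p = 0.633 in edgeR). Its Egfr KO PSC mean rested on replicate 3, at 94.3 CPM, and the log2 fold change was 0.33 without that library, 0.51 with limma voom and 1.71 with the fibroblast score as a covariate. Lrat, the enzyme that stores retinol as esters in stellate cells, had at most 7 estimated counts in a library and did not pass the filter. Lrp2, an endocytic receptor that takes up retinol carriers in the kidney, also did not pass. It had 0, 0, 2, 0 and 0 estimated counts in Egfr KO PSC replicates 1 to 5, and 10, 66, 40, 20 and 0 in Egfr WT PSC replicates 1 to 5. It was the only other pathway gene that DESeq2 called (adjusted p = 0.00487).

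Enzymes that act on carotenoids, retinol or retinal ranged widely in level. Bco2, which cleaves carotenoids, was at 6.45, 4.23, 2.17, 2.55 and 2.43 CPM in Egfr KO PSC replicates 1 to 5, and at 12.2, 6.83, 13.0, 7.51 and 4.43 CPM in Egfr WT PSC replicates 1 to 5. For Bco2, 4 Egfr KO PSC libraries lay below every Egfr WT PSC library (log2 fold change -1.30, SE 0.37, adjusted p = 0.44 in edgeR). Adh7, an alcohol dehydrogenase that oxidises retinol, averaged 0.943 ± 0.733 CPM with Egfr KO PSCs and 2.96 ± 2.18 CPM with Egfr WT PSCs (log2 fold change -1.65, adjusted p = 0.564 in edgeR, and -1.07 on log2 TPM). Dhrs3, which turns retinal back into retinol and is induced by retinoic acid, was abundant, at 229 ± 35.3 CPM with Egfr KO PSCs and 187 ± 28.9 CPM with Egfr WT PSCs (log2 fold change 0.29, adjusted p = 0.62 in edgeR). Adh5, Akr1b8, Dhrs4 and Dhrs7 were the other abundant enzymes of this group, at mean levels of 115, 126, 65.2 and 46.8 TPM, with log2 fold changes from -0.064 to 0.082. Pnpla2, a lipase known for triglyceride breakdown, was at 80.2 ± 14.8 CPM with Egfr KO PSCs and 72.4 ± 7.82 CPM with Egfr WT PSCs.

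None of the genes that serve as readouts of retinoic acid passed the adjusted test in edgeR, which 0 of all 17495 genes tested passed. This result therefore does not set the readouts apart from other genes. Cyp26a1, whose site is printed above, was scarce, at 1.09, 1.76, 0.254, 1.57 and 0.678 CPM in Egfr KO PSC replicates 1 to 5, and at 1.06, 1.51, 0.832, 1.07 and 1.25 CPM in Egfr WT PSC replicates 1 to 5 (log2 fold change -0.091, adjusted p = 0.971 in edgeR). Cyp26b1, which also degrades retinoic acid, averaged 13.6 ± 5.58 CPM with Egfr KO PSCs and 11.7 ± 6.53 CPM with Egfr WT PSCs (adjusted p = 0.906 in edgeR). Tgm2, a transglutaminase gene induced by retinoic acid and by other signals, was at 241, 294, 161, 205 and 259 CPM in Egfr KO PSC replicates 1 to 5, and at 417, 305, 486, 362 and 254 CPM in Egfr WT PSC replicates 1 to 5. Its log2 fold change was -0.65 (SE 0.19, adjusted p = 0.44 in edgeR), and 3 Egfr KO PSC libraries lay below every Egfr WT PSC library. Adding the fibroblast score as a covariate gave -1.03. Dhrs3 and Stra6, described above and also listed as genes that respond to retinoic acid, had log2 fold changes of 0.29 and 0.24. Above every Egfr WT PSC library lay 3 Egfr KO PSC libraries for Dhrs3 and 2 for Stra6. Rarres2, which encodes the chemoattractant chemerin, averaged 1.02 ± 0.602 CPM with Egfr KO PSCs and 1.99 ± 0.639 CPM with Egfr WT PSCs (log2 fold change -0.96, adjusted p = 0.578 in edgeR, and -0.48 with the fibroblast score as a covariate). Bhlhe40 and Ccnd1 were abundant, with log2 fold changes of 0.099 and 0.30 and adjusted p of 0.886 and 0.647 in edgeR.

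Of the receptor partners, Rxrb averaged 22.0 ± 3.96 CPM with Egfr KO PSCs and 22.1 ± 2.58 CPM with Egfr WT PSCs. Rxra averaged 11.9 ± 1.34 CPM with Egfr KO PSCs and 12.9 ± 1.57 CPM with Egfr WT PSCs, and Rxrg did not pass the filter. The coactivator gene Ncoa1 was at 8.56, 6.02, 5.16, 6.59 and 7.92 CPM in Egfr KO PSC replicates 1 to 5, all below the 9.43, 9.44, 10.6, 9.05 and 9.95 CPM of Egfr WT PSC replicates 1 to 5 (log2 fold change -0.50, SE 0.16, adjusted p = 0.471 in edgeR). With effective-length offsets the value was -0.96 (adjusted p = 0.222 in edgeR), and per length Ncoa1 averaged 2.09 ± 0.374 TPM with Egfr KO PSCs and 4.13 ± 0.464 TPM with Egfr WT PSCs. The related Ncoa2 and Ncoa3 had log2 fold changes of 0.013 and 0.18.

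**Figure D5:**
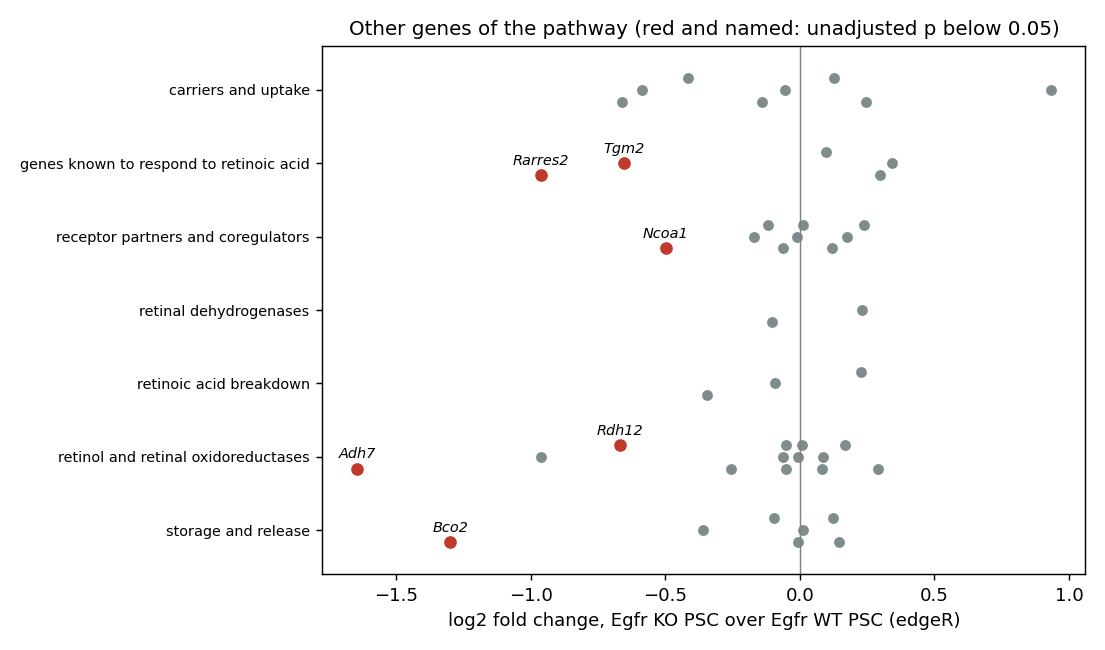
Log2 fold change (Egfr KO PSC divided by Egfr WT PSC) of the 47 other pathway genes that passed the filter, grouped by role; each point is 1 gene. Those with an unadjusted edgeR p below 0.05 are red and named, and all 6 lie at the left of 0, while none passes after adjustment over all genes. The genes were listed with earlier results of these data known.

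For each of the 9 genes the 3 protein-coding genes of most like pattern were taken from 9918 genes averaging 5 CPM or more. The measure was Pearson's r of log2 CPM over the 10 libraries. These libraries differed in group, depth and marker levels, and r was taken across both groups without a covariate. The best for Rbp4 were Gde1 (r = 0.96), Ptger4 (0.92) and Serp1 (0.92), and for Aldh1a3 Zbtb43 (0.97), Cnot1 (0.96) and Dync1li2 (0.95). Rdh10 was followed by Col27a1 (0.94), Adgrl2 (0.93) and Bcl2 (0.91), and Dhrs9 by Styk1 (0.94), Serac1 (0.94) and Wdr36 (0.92). For Crabp2 they were Wdr26 (0.95), Tpt1 (0.95) and Mknk2 (0.92), and for Aldh1a1 Nptxr (0.90), Luc7l (0.89) and Zcchc7 (0.88). Among the receptors, Rarb was most like Pnpla7 (0.96), Hacl1 (0.95) and Pef1 (0.95), Rara most like Adamtsl5 (0.89), Ube2g2 (0.88) and P4hb (0.88), and Rarg most like Zswim3 (0.89), Zc3h10 (0.89) and Ccdc84 (0.88). No gene stood in more than 1 of these sets. These are the highest of many values over few libraries and are a description only.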

How the data were processed

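The authors deposited 1 transcript table per library with estimated counts, TPM and effective lengths. Per the submitters' processing notes Salmon 1.9.0 made these deposited expected counts and TPM values on GRCm39; neither the notes nor the labels name an annotation release. Of 147828 transcripts, 137063 (92.7%) were assigned to genes by identifier with GENCODE release M21, used for names and annotated starts only. For each gene the estimated counts of its transcripts were added and then rounded. The groups were compared with edgeR 4.0.16 (R 4.3.3; quasi-likelihood test, TMM, minimum count 10, no covariate), adjusted by the Benjamini-Hochberg method over 17495 genes, and tested on simulated data. DESeq2 1.42.0 and limma 3.58.1 were alternatives, with RLE factors, no filter, effective lengths, log2(TPM + 0.5), marker scores, file-name numbers and each library left out. Intervals cover the spread between libraries; PCR duplicates cannot be told apart.

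The 9 genes and all lists were chosen with earlier results of these data known. The list is described as 10 genes, of which 1 is not analysed here. Of the pathway list, the text names the 12 of highest mean TPM and the 6 of lowest p with at least 1 CPM, except 1 that is not reported here; Ttr, Aldh1a2, Cyp26a1, Cyp26b1, Rxra, Rxrb, Ncoa2, Ncoa3, Lrat, Lrp2, Rxrg and Rdh12 were added after their values were seen. Plaat3 and Pnpla4 were not matched.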

Additional observations from a re-analysis of the deposited data

Results flagged for a closer look

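Of 60 groups of 5 libraries examined for a library far from the others, 6 held one, where chance flags about 1 in 20. For the genes described here these were Crabp2 in Egfr WT PSC replicate 5, at 29.9 CPM against 2.16 to 6.61 CPM in the rest of its group, and Rarb in Egfr WT PSC replicate 1, at 12.5 CPM against 4.69 to 6.93 CPM. The share of Aldh1a3-201 was 84.3% in Egfr WT PSC replicate 5, against 88.8% to 90.3% in the rest of its group. Among the other pathway genes, Fabp5 was at 94.3 CPM in Egfr KO PSC replicate 3, against 15.5 to 31.6 CPM in the other Egfr KO PSC libraries. Akr1b8 was at 157 CPM in Egfr WT PSC replicate 1, against 91.3 to 107.9 CPM, and Dhrs7 at 61.0 CPM in Egfr WT PSC replicate 2, against 34.3 to 40.1 CPM. The cause was not tested.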

How the results depend on the processing

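No paired analysis was possible because the labels give no replicate numbers that link libraries of the groups. Over 19 alternatives, Rbp4, Rdh10 and Dhrs9 kept their direction in all. The count of all genes called was 0 in the main test, 132 with DESeq2, 3 with limma voom, 1 on log2 TPM, 1 without an expression filter and 0 to 4 when 1 library was left out; members called were 1 with DESeq2 (Rbp4), as were other pathway genes (Lrp2), and 0 otherwise. Transcript shares gave 0 calls throughout. For Dhrs9 the log2 fold change was 0.44 on log2(TPM + 0.5), where the pseudocount exceeds its mean level. Directions turned as follows; the cause was not tested. With the fibroblast score the log2 fold change was 1.50 for Crabp2, -0.021 for Aldh1a3, -0.097 for Rara, -0.015 for Rarg and -0.032 for Stra6, and with the macrophage score -0.42 for Aldh1a3 and -0.35 for Akr1b8. With the file-name number it was 0.19 for Crabp2 and -0.18 for Akr1b8, with limma voom 0.61 for Crabp2, 0.083 for Rarb and -0.19 for Akr1b8, on log2 TPM 0.21 for Crabp2 and -0.093 for Akr1b8, and with effective lengths -0.0024 for Akr1b8. Leaving out 1 library gave -0.053 to 0.49 for Aldh1a1, -0.040 to 0.41 for Aldh1a3, -0.52 to 0.83 for Crabp2, -0.014 to 0.11 for Rara, -0.28 to 0.20 for Rarb, -0.43 to 0.13 for Dhrs7, -0.29 to 0.16 for Akr1b8 and -0.043 to 0.16 for Bhlhe40. Dhrs9 had 14 to 110 estimated counts per library.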
